A study of Drosophila melanogaster with 10 samples.

Results

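The genes described here are those whose nascent RNA was higher in the libraries labelled Sce RNAi and not in those labelled Ph RNAi. They were measured in ML-DmBG3-c2 (BG3) cells, a cultured Drosophila line of larval nervous system origin. Members were chosen by the authors' mean nascent signal, which had to be at least 1000 in mock cells, at least 1.4 times mock after Sce RNAi and no more than 5% above mock after Ph RNAi. The rule found 77 of the 7624 genes of the table. They made up 10.2% of the 752 genes that met the mock and Sce limits, while the other 675 lay above the Ph limit. Those 3 nascent means chose the members, so they are given below as a description with no test. The readout that the rule did not use was total RNA, for which the authors' deposited table gives a ratio to mock, a p and a q after Sce, Ph and Pc RNAi. Here "called" means a q under 0.05 in that table.

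Sce, also known as dRING, is the subunit of Polycomb repressive complex 1 (PRC1) that ubiquitinates histone H2A. Polyhomeotic (Ph) is a subunit that links PRC1 complexes to one another through its SAM domain, and Polycomb (Pc) is the subunit that binds methylated histone H3. PRC1 is best known for holding developmental regulators silent, and it is also found at genes that are being transcribed.

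Nascent RNA was sequenced from chromatin in 4 libraries labelled Sce RNAi, 3 labelled Ph RNAi and 3 from mock-treated cells, all grown in insulin-supplemented medium. Double-stranded RNA was used for each knockdown, in most experiments as a mixture of a pair of fragments per target. The labels number the replicates without saying whether they are separate cultures, and the spread behind the authors' p-values may therefore be technical. The table gives the authors' group means without values per library, so no error can be put beside a mean and depth is unknown. Total RNA was measured in libraries other than these 10, and the sources used here do not say whether they shared cells with the nascent libraries. The 3 total RNA comparisons share their mock control, and so do both nascent ones.

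Each targeted gene had a ratio above mock, not below it, under its own label. Sce had a nascent mean of 293193 in the libraries labelled Sce RNAi, against 2475 in mock. In total RNA of the authors' deposited table, Sce was 27.0 times mock after Sce RNAi, ph-p 8.64 and ph-d 8.09 times mock after Ph RNAi, and Pc 21.5 times mock after Pc RNAi. Of these, ph-p (q 0.017) and ph-d (q 0.028) were called, and Sce (q 0.198) and Pc (q 0.13) were not. Directions below therefore rest on the labels, and "after Sce RNAi" or "after Ph RNAi" stands for the libraries labelled so. The neuronal gene elav had a mock mean of 9594, and 6 of the 15 neuronal markers listed are rows of the table, each above 1000 in mock. In bulk RNA, fewer cells of a type and less RNA per cell cannot be told apart.

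The members were moderately transcribed genes with modest ratios. Their mock means ran from 1057 to 124844 with a median of 3898, against a median of 6550 for all 6282 genes that met the mock limit. After Sce RNAi their ratios ran from 1.401 to 2.49 with a median of 1.51, and 4 of 77 were above 2. After Ph RNAi the ratios ran from 0.160 to 1.04 with a median of 0.855, and 22 of 77 were 1.4-fold or more below mock. Of all genes 16.8% were that low, but the rule had removed the genes above its Ph limit from the members and not from that background, so the shares are not compared. None of the 77 had a nascent q under 0.05 in the authors' deposited table, in either knockdown. Over all genes 0.0656% were called higher and 0.0525% lower in nascent RNA after Sce RNAi, and 1.69% higher and 0.787% lower after Ph RNAi. At an unadjusted p under 0.05 there were 16 members after Sce RNAi and 6 after Ph RNAi, where 4.62% of the whole table was higher after Sce RNAi and 6.66% lower after Ph RNAi. The rule itself placed the 16 above mock and, for Ph RNAi, left out all genes more than 5% above mock, so nothing is read from these counts or shares. The label "raised by Sce" thus names a ratio of group means and not a change that passed the authors' threshold.

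At the edge of the Sce limit stood the members CR42874 at 1.401 and p38b at 1.404 times mock, with CG30291 at 1.398 and CG1090 at 1.395 just outside it. At the Ph limit CG11970 at 1.040 and CG7053 at 1.039 times mock were inside, and Nup50 and l(1)G0045, both at 1.066, were outside. At the mock limit CG13567 with a mean of 1057 and CG42370 with 1063 were inside, and CG33213 with 969 and MED31 with 934 were outside.

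**Figure D1:**
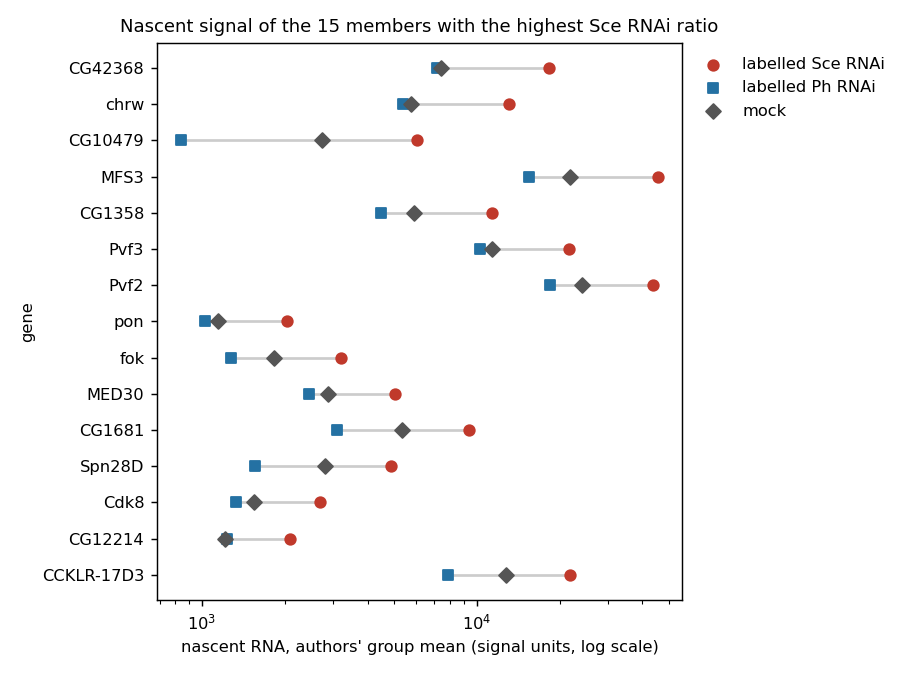
Authors' mean nascent signal, on a log axis in signal units, of the 15 members with the highest Sce RNAi ratio, with 1 point per group. The Sce RNAi point lies to the right of the mock point for each gene by construction of the rule, and the widest gap between the Sce RNAi and Ph RNAi points is that of CG10479, at 6075 and 837.

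In total RNA the members as a group leaned higher after Sce RNAi and lower after Ph RNAi. The median total RNA ratio of the 77 members was 1.21 after Sce RNAi, 0.836 after Ph RNAi and 1.01 after Pc RNAi, against 1.042, 1.049 and 1.034 over all 7624 genes. After Sce RNAi 56 of 77 members lay above mock (72.7%, against 54.8% of all genes), and 29 were at 1.4 times mock or more (37.7%, against 15.3%). After Ph RNAi 50 of 77 lay below mock (64.9%, against 44.3% of all genes). After Pc RNAi 40 of 77 lay above mock (51.9%, against 53.6% of all genes). These are counts of ratios, with no test of the list. The total RNA libraries may share cells with the nascent ones that chose the members, so this lean is no separate support for the choice.

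Few single members were called in total RNA. After Sce RNAi the authors' q was under 0.05 for 3 of 77 members, all higher, where 0.236% of all genes were called higher, and no member was called lower, where 0.0131% of all genes were. At an unadjusted p under 0.05 there were 16 members higher (20.8%, against 9.27% of all genes) and 0 lower (against 2.3%). Among the 675 genes that met the Sce limit but not the Ph limit, 156 were higher at that p (23.1%) with a median ratio of 1.23, so by these figures the members stood close to them. After Ph RNAi 1 member was called higher and 1 lower, where 3.52% and 0.367% of all genes were. The median after Ph RNAi was 0.836 in the members and 1.23 in the 675 genes, a gap on the side that the nascent Ph limit chose. After Pc RNAi 7 members were called higher (9.09%, against 3.04% of all genes) and 0 lower (against 0.144%). Of the 675 genes 54 were called higher after Pc RNAi (8.0%), so the members stood close to them in that share alone. The median ratio after Pc RNAi was 1.01 in the members and 1.20 in the 675 genes, with 51.9% and 70.5% above mock.

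**Figure D2:**
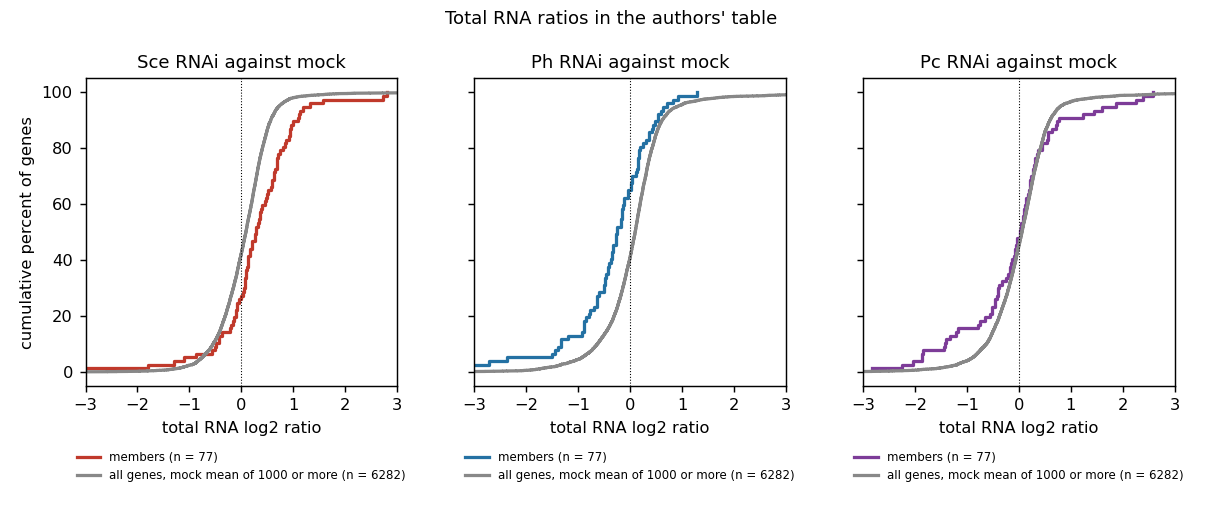
Cumulative percent of genes against the log2 total RNA ratio to mock in the authors' deposited table, for the 77 members and for all 6282 genes with a mock mean of 1000 or more. The members' curve lies to the right of that of all genes over most of its range after Sce RNAi, with medians of 0.28 and 0.09, and to the left after Ph RNAi, with medians of -0.26 and 0.10, and after Pc RNAi the medians are 0.02 and 0.06. In the Sce RNAi panel 1 member and in the Ph RNAi panel 2 members lie beyond the axis.

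The genes called in total RNA after Sce RNAi were CG10479, CG8398 and CG5191, and the 3 were also called after Pc RNAi. CG10479 had nascent means of 6075 after Sce RNAi, 837 after Ph RNAi and 2724 in mock. In the authors' deposited table its total RNA was 6.62 times mock after Sce RNAi (q 0.010), 1.29 after Ph RNAi (q 0.468) and 5.98 after Pc RNAi (q 0.013). CG10479 was thus the member with the largest rise among those called after Sce RNAi, and its nascent Ph mean was the lowest of the 3 groups. CG8398, listed as axed in the current annotation and known for its part in injury-induced axon degeneration, had nascent means of 4415 after Sce RNAi, 1658 after Ph RNAi and 2804 in mock. Its total RNA was 2.99 times mock after Sce RNAi (q 0.047), 0.902 after Ph RNAi (q 0.520) and 2.73 after Pc RNAi (q 0.042) in the authors' deposited table. CG5191 had nascent means of 41342, 15149 and 29198 after Sce RNAi, after Ph RNAi and in mock. Its total RNA was 2.50 times mock after Sce RNAi (q 0.006), 1.11 after Ph RNAi (q 0.434) and 3.67 after Pc RNAi (q 0.002) in the authors' deposited table. For each of these 3 genes the Ph RNAi value was not called, and the difference between the knockdowns was not tested.

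Of the other members called in total RNA, 4 were called after Pc RNAi and 1 after Ph RNAi alone. The Hedgehog receptor gene ptc and rols are described with their groups. CG4984 rose 4.76-fold after Pc RNAi (q 0.046) and had ratios of 1.67 after Sce RNAi and 1.36 after Ph RNAi in the authors' deposited table. Its model lies wholly within that of CG4975 on the same strand, so the origin of its signal is uncertain. CG1544, a gene for a 2-oxoacid dehydrogenase, was called in opposite directions: it was 0.544 times mock after Ph RNAi (q 0.024) and 1.48 after Pc RNAi (q 0.033), with 1.12 after Sce RNAi, in the authors' deposited table. The nascent means of CG1544 were 12231 after Sce RNAi, 4967 after Ph RNAi and 7591 in mock. The gene rngo, which encodes a ubiquitin-binding protein needed for germ cell ring canals, rose 1.45-fold in total RNA after Ph RNAi (q 0.012), although its nascent Ph ratio was 1.03. Its total RNA was also 1.402 times mock after Sce RNAi and 1.36 after Pc RNAi without being called in the authors' deposited table.

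**Figure D3:**
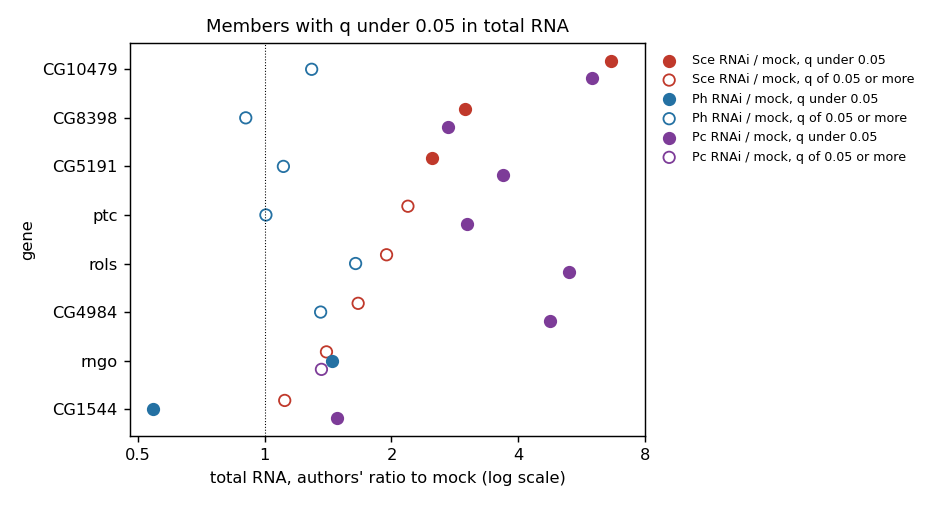
Total RNA ratio to mock, on a log axis, of the 8 members with q under 0.05 in any total RNA comparison of the authors' deposited table, with filled points for q under 0.05 and open points otherwise. Of the 8, CG1544 is the gene with a filled Ph RNAi point below 1, at 0.544, and rngo the gene with a filled Ph RNAi point above 1, at 1.45.

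The role groups below were formed after the values were seen and hold 45 of the 77 members, while 32 had no role assigned. Of the 21 gene lists set out for the series, covering Polycomb and trithorax groups, signalling, metabolism, stress and cell type markers, only 6 members appeared in any, namely ptc, Pvf2, Pvf3, LpR1, LpR2 and brk. No gene of the PRC1, PRC2, trithorax or Notch lists and no listed marker of neurons, glia, neural stem cells, blood, muscle, fat body or germ line was a member. Of those markers, 0 of 6 neuronal, 9 glial, 4 neural stem cell, 10 blood, 8 muscle and 2 fat body and germ line genes were called in total RNA after Sce RNAi in the authors' deposited table. After Ph RNAi 2 neuronal, 2 glial and 2 neural stem cell markers were called higher in total RNA, and after Pc RNAi 2 neuronal, 1 glial, 2 neural stem cell and 1 blood marker were, with none called lower in either, in the authors' deposited table. Of all genes 0.236% were called higher after Sce RNAi, 3.52% after Ph RNAi and 3.04% after Pc RNAi. The neuronal marker CadN was at 0.344 times mock in total RNA after Ph RNAi, which was not called. Its nascent ratio after Ph RNAi was 0.481 (q 0.036 in the authors' deposited table). The 10 blood markers had median total RNA ratios of 0.759 after Ph RNAi and 1.37 after Pc RNAi. The median total RNA ratio of the 4 neural stem cell genes was 2.99 after Sce RNAi, 18.2 after Ph RNAi and 20.0 after Pc RNAi, and pros, a neural fate gene of that list, was 29.3 times mock after Ph RNAi (q 0.023) and 37.0 times mock after Pc RNAi in the authors' deposited table. After Ph RNAi these 4 ran from mira at 1.67 times mock, which was not called, to nub at 3750. The nascent mock mean of nub was low, at 330. Some cell type markers thus moved in the same libraries as the members' Ph and Pc values, and their part in those values was not tested.

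Both receptors of the Hedgehog pathway among the members were well transcribed. In this pathway Patched, encoded by ptc, holds the membrane protein Smoothened inactive until Hedgehog binds, and boi encodes a co-receptor that helps present Hedgehog to Patched. The nascent means of ptc were 45932 after Sce RNAi, 19995 after Ph RNAi and 30188 in mock. Its total RNA rose 3.03-fold after Pc RNAi (q 0.005), and was 2.19 times mock after Sce RNAi (p 0.001, q 0.121) and 1.01 after Ph RNAi in the authors' deposited table. For boi the nascent means were 97909 after Sce RNAi, 56397 after Ph RNAi and 65247 in mock. Total RNA of boi was 2.29 times mock after Sce RNAi (p 0.002, q 0.164), 1.29 after Ph RNAi and 1.70 after Pc RNAi in the authors' deposited table. Other genes of the pathway had other values: smo, for Smoothened, had nascent ratios of 0.92 after Sce RNAi and 0.77 after Ph RNAi, and ci, for the transcription factor at the end of the pathway, had 0.72 and 1.29. In the list of Wnt and Hedgehog genes 19 of 23 are rows of the table, and in total RNA 0 were called after Sce RNAi, 3 were called higher after Ph RNAi and 3 higher after Pc RNAi in the authors' deposited table, with ptc among the last 3. Of all genes 0.236% were called higher after Sce RNAi, 3.52% after Ph RNAi and 3.04% after Pc RNAi.

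Pvf2 and Pvf3 encode PDGF- and VEGF-related ligands of the receptor tyrosine kinase Pvr and are next to each other on chromosome arm 2L. Pvf3 had nascent means of 21605 after Sce RNAi, 10280 after Ph RNAi and 11345 in mock, a Sce ratio of 1.90. Pvf2 had 43878 after Sce RNAi, 18412 after Ph RNAi and 24127 in mock, a Sce ratio of 1.82. The neighbours thus had close nascent ratios. In total RNA Pvf2 was 1.54, 0.719 and 0.701 times mock after Sce, Ph and Pc RNAi, and Pvf3 was 1.02, 0.380 and 1.21 times mock, none of them called in the authors' deposited table. The gene of the shared receptor, Pvr, lay just under the limit with a nascent Sce ratio of 1.39 and a Ph ratio of 0.88. The other ligand gene, Pvf1, had nascent ratios of 0.63 after Sce RNAi and 0.39 after Ph RNAi, and its total RNA fell to 0.505 times mock after Ph RNAi (q 0.049) in the authors' deposited table. In the list of receptor tyrosine kinase pathway genes, 26 of 27 are rows of the table, and in total RNA 0 were called after Sce RNAi in the authors' deposited table, 3 higher and 1 lower after Ph RNAi and 3 higher after Pc RNAi. The shares over all genes were 0.236% higher after Sce RNAi, 3.52% higher and 0.367% lower after Ph RNAi, and 3.04% higher after Pc RNAi.

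Other genes of cell surface proteins were CCKLR-17D3, for a receptor of the cholecystokinin type, and CG42368, listed as DIP-epsilon, for an immunoglobulin-domain protein of neuronal surfaces. CG42368 had the highest nascent Sce ratio of the 77, with means of 18362 after Sce RNAi, 7135 after Ph RNAi and 7375 in mock. Its total RNA was 1.57 times mock after Sce RNAi and 0.097 after Ph RNAi, and the authors' deposited table gave q of 0.466 and 0.228. CG42370, listed as the peptidase gene Nepl6, lies wholly within the same model on the same strand and had similar ratios, 1.55 and 0.112, so these members may share reads. CCKLR-17D3 had nascent means of 21788 after Sce RNAi, 7840 after Ph RNAi and 12811 in mock, and a total RNA ratio of 0.354 after Ph RNAi with an unadjusted p of 0.023 in the authors' deposited table. Of the 6 genes in this group 5 had a total RNA ratio above 1 after Sce RNAi and 4 had one below 1 after Ph RNAi. Those shares were 72.7% and 64.9% over the 77 members and 54.8% and 44.3% over all genes. Nothing particular to this group is read from its counts.

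LpR1, LpR2, MFS3 and path, which serve uptake into the cell, made a group of 4 that was formed after the values were seen. Each total RNA ratio was above 1 after Sce RNAi, with MFS3 at 1.09, and below 1 after both Ph and Pc RNAi. None of these was called. Of all genes 54.8% were above 1 after Sce RNAi, and 44.3% and 46.3% were below 1 after Ph and Pc RNAi. With 4 genes grouped in this way, nothing is read from their shared direction. LpR1 and LpR2 are neighbouring genes for receptors of lipophorin, the lipid carrier of insect blood, and as related sequences they may share reads. LpR2 had the highest signal of the 77, with nascent means of 188464 after Sce RNAi, 117911 after Ph RNAi and 124844 in mock. LpR1 had 63127, 6399 and 39943 in the same order, so its Ph mean was 6.24-fold below mock, the lowest Ph ratio of the 77. In total RNA LpR1 was 1.98, 0.193 and 0.209 times mock after Sce, Ph and Pc RNAi, and LpR2 was 1.91, 0.895 and 0.970 times mock in the authors' deposited table. The q values of LpR1 were 0.448, 0.374 and 0.529 there. MFS3, of the major facilitator transporter family, had nascent means of 45732 after Sce RNAi, 15520 after Ph RNAi and 21747 in mock. The amino acid transporter gene path had a total RNA ratio of 2.12 after Sce RNAi (p 0.033, q 0.246) in the authors' deposited table. Among metabolic enzymes beside CG1544, CG1673, listed as the branched-chain aminotransferase gene Bcat, had total RNA ratios of 2.17, 0.528 and 0.377 after Sce, Ph and Pc RNAi, and CG1681, listed as the glutathione transferase gene GstT4, had 0.545, 0.759 and 1.098.

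Genes tied to asymmetric division and to cilia came in pairs. The gene pon encodes Partner of numb, an adaptor that localizes the Notch inhibitor Numb in dividing neural precursors, and spdo encodes a membrane protein on which Numb acts. The nascent means of pon were 2032 after Sce RNAi, 1025 after Ph RNAi and 1142 in mock, and its total RNA was 1.20, 1.34 and 1.56 times mock after Sce, Ph and Pc RNAi. For spdo the nascent means were 5815, 3214 and 4061 in the order Sce RNAi, Ph RNAi and mock, and the total RNA ratios were 0.704, 1.104 and 1.30. The model of spdo lies wholly within that of PH4alphaEFB on the same strand, so its signal is uncertain in origin. Of the ciliary genes, rempA, for a protein of intraflagellar transport, had nascent means of 17271 after Sce RNAi, 10496 after Ph RNAi and 10397 in mock. Total RNA of rempA was 1.88 times mock after Sce RNAi (p 0.005, q 0.197), 0.969 after Ph RNAi and 1.06 after Pc RNAi in the authors' deposited table. CG13889, listed as Cep290 of the ciliary transition zone, had total RNA ratios of 1.61, 0.841 and 1.18 in the same order.

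The scaffold genes rols and CAP were among the 10 members with the highest mock means. The gene rols, needed for the fusion of myoblasts, had nascent means of 77296 after Sce RNAi, 27251 after Ph RNAi and 53285 in mock. Its total RNA rose 5.27-fold after Pc RNAi (q 0.003), and was 1.95 times mock after Sce RNAi (p 0.011, q 0.209) and 1.64 after Ph RNAi (q 0.294) in the authors' deposited table. The total RNA of rols after Ph RNAi was thus on the other side of mock from its nascent ratio of 0.511. CAP, for an adaptor that binds vinculin, had nascent means of 170446, 80064 and 109504 in the order Sce RNAi, Ph RNAi and mock, and total RNA ratios of 1.15, 1.23 and 1.21 after Sce, Ph and Pc RNAi.

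The members with roles in transcription and chromatin had total RNA ratios around mock after Sce RNAi. These 7 were the Mediator genes Cdk8 and MED30, the TFIID gene Taf5, wda of the SAGA coactivator, MrgBP of the Tip60 complex, the gene of the large subunit of chromatin assembly factor and brk, a repressor of targets of Dpp signalling. Their nascent Sce ratios ran from 1.41 to 1.76, their total RNA ratios after Sce RNAi from 0.864 to 1.33 with a median of 0.993, and 0 of 7 had an unadjusted p under 0.05 after Sce RNAi in the authors' deposited table. With 9.27% of all genes higher and 2.3% lower at that p, nothing is read from a count of 0 among 7 genes. After Ph RNAi Taf5 was at 1.44 times mock (p 0.012, q 0.090) and MED30 at 0.749 (p 0.025, q 0.120) in the authors' deposited table. Cdk8 had nascent means of 2689 after Sce RNAi, 1324 after Ph RNAi and 1549 in mock, and MED30 had 5046, 2456 and 2868. In total RNA Cdk8 was 0.993, 1.08 and 0.890 times mock after Sce, Ph and Pc RNAi. The nascent means of brk were 5581, 1862 and 3625 in the order Sce RNAi, Ph RNAi and mock, with models on the opposite strand covering 100% of it. Total RNA of brk was 0.864, 0.554 and 0.732 times mock after Sce, Ph and Pc RNAi.

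Genes of membrane traffic formed a group of 5. They were comt, for the fusion ATPase NSF, the SNARE genes Syx18 and usnp, AP-2sigma of the endocytic adaptor, and chrw, listed as the Rab gene RabX1. The nascent means of chrw, whose Sce ratio of 2.28 was the second highest, were 13112 after Sce RNAi, 5371 after Ph RNAi and 5749 in mock. Syx18 had a total RNA ratio of 1.795 after Sce RNAi (p 0.011, q 0.209) and 1.63 after Pc RNAi (p 0.012, q 0.118) in the authors' deposited table, while AP-2sigma was below mock after each of the 3 knockdowns, with 0.641 after Ph RNAi and 0.580 after Pc RNAi. Among genes for RNA and DNA processes, the repair gene Brca2 had a total RNA ratio of 1.501 after Sce RNAi (p 0.005, q 0.197) in the authors' deposited table, and icln, cyp33 and vret lay between 1.03 and 1.16. The remaining gene of that group, CG13567, lay below mock, at 0.407, 0.576 and 0.367 after Sce, Ph and Pc RNAi, with none called. Of the group of stress, immunity and proteolysis, the total RNA of Irc, the gene of an immune-regulated catalase, was 0.745, 0.400 and 0.768 times mock after Sce, Ph and Pc RNAi. For p38b, a stress kinase gene, the total RNA ratios were 0.926, 1.20 and 1.01, and for the serpin gene Spn28D they were 1.045, 0.541 and 0.848.

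The 3 non-coding members were mir-33, mir-307a and the long non-coding RNA gene CR42874. The nascent means at mir-33, whose model lies within SREBP on the same strand, were 1620 after Sce RNAi, 720 after Ph RNAi and 1124 in mock, and those at mir-307a were 2493, 1482 and 1739. Signal at these short models may come from a longer primary transcript or host gene and does not measure the mature microRNA.

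**Figure D4:**
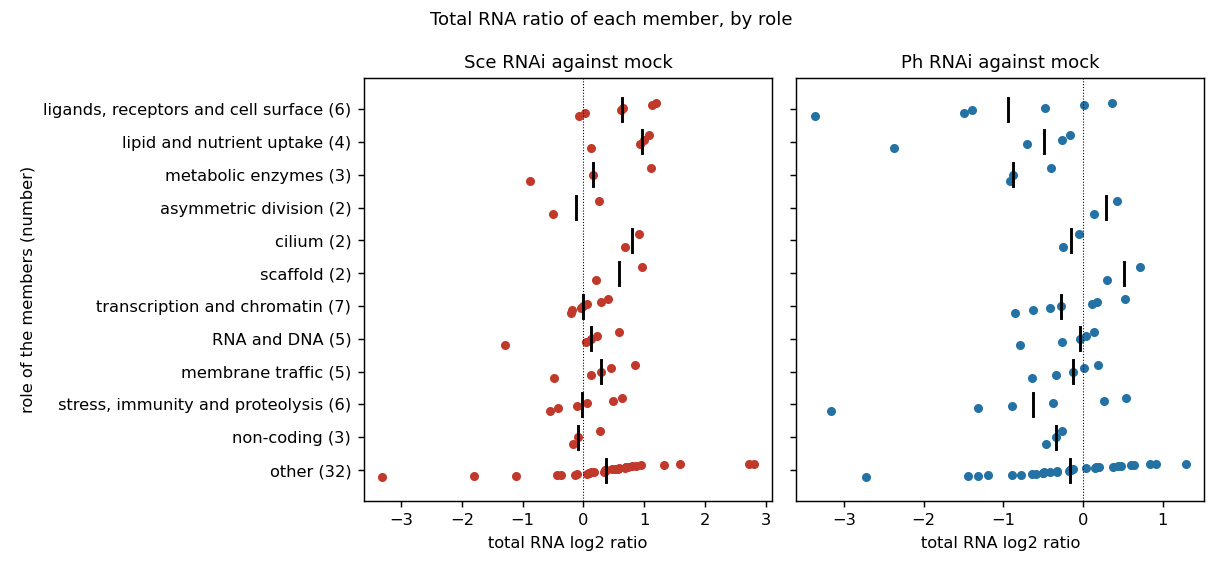
Log2 total RNA ratio to mock of each of the 77 members (points) with the median of each role group (black bar), after Sce RNAi and after Ph RNAi. The 4 uptake genes lie above 0 after Sce RNAi and below 0 after Ph RNAi, and the 7 transcription and chromatin genes lie around 0 after Sce RNAi, with a median ratio of 0.993. Role groups were formed after the values were seen.

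Members without an assigned role filled out the strongest signals and ratios. CG32369, the third highest in mock, had nascent means of 122610 after Sce RNAi, 67923 after Ph RNAi and 84044 in mock, and its total RNA was 1.504 times mock after Sce RNAi (p 0.023, q 0.232) and 0.705 after Ph RNAi (q 0.255) in the authors' deposited table. CG6701 had nascent means of 77477, 53604 and 54543 in the order Sce RNAi, Ph RNAi and mock, and CG10283 had 43045, 24166 and 28577. In total RNA CG6701 was 1.07 and 0.715 times mock after Sce and Ph RNAi and CG10283 was 1.12 and 0.707 in the authors' deposited table, none of them called. CG1358, listed as HisT, and CG12214, listed as mlt, had nascent Sce ratios of 1.93 and 1.71. Their total RNA ratios were 1.39 and 1.28 after Sce RNAi and 0.665 and 0.897 after Ph RNAi in the authors' deposited table, with none called. The model of CG12214 lies wholly within that of KCNQ on the same strand.

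Nascent and total RNA ranked the members differently. Across the 77 members the log2 ratios after Sce RNAi in nascent and total RNA had a Pearson correlation of 0.08 and a Spearman correlation of -0.03, and across all 6282 genes with a mock mean of 1000 or more they had 0.37 and 0.31. The members span a narrow range of nascent ratios by their choice, and genes are not independent replicates. CG2964 had the highest total RNA ratio after Sce RNAi, 6.96 (q 0.267 in the authors' deposited table), at a nascent ratio of 1.70. At the other end fok, at a nascent ratio of 1.76, had a total RNA ratio of 0.286 (q 0.332), and CG13814, at a nascent ratio of 1.58, had 0.101 (q 0.429) in the authors' deposited table. None of these total RNA ratios was called. The total RNA means were not used, so the signal behind such extreme ratios is not known here and may be low. The model of neb on the opposite strand covers 100% of that of fok, so the origin of the signal of fok is uncertain.

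**Figure D5:**
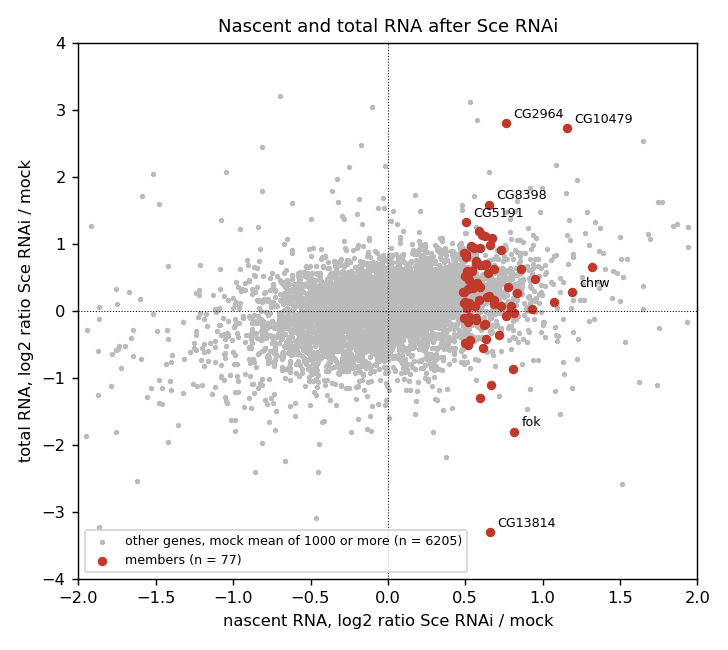
Log2 total RNA ratio against log2 nascent RNA ratio, both Sce RNAi to mock, for the 77 members and for the other 6205 genes with a mock mean of 1000 or more. The members fill the band right of the 1.4 limit and spread in total RNA between CG2964 with a ratio of 6.96 and CG13814 with 0.101, and 32 genes, 0 of them members, lie beyond the axes. The total RNA ratios of CG2964 and CG13814 were not called.

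By position the members were spread over the genome. All 77 matched a gene model of the Ensembl annotation of assembly BDGP6, 18 of them under another symbol. The sources used here do not name the authors' build, so no coordinates are given. On arms X, 2L, 2R, 3L and 3R there were 10, 15, 18, 18 and 16 members, 13.0%, 19.5%, 23.4%, 23.4% and 20.8%, where all matched genes of the table had 17.5%, 18.9%, 20.0%, 19.1% and 23.7%. There were 5 pairs of members next to each other in the table's gene order, which were Pvf2 with Pvf3, LpR1 with LpR2, CG42368 with CG42370, CG1673 with CG1681, and CG9008 with p38b. The median model length was 3935 bases in the members, 3280 bases in the matched genes that met the mock limit and 2795 bases in all matched genes. Other models, transposon entries included, covered 50% or more of 15 of 77 members (19.5%, against 11.2% of matched genes that met the mock limit and 11.9% of all), 11 of them wholly on the same strand. Among these were CG31538 within mtd, CG3982 within Atat and CG7053 within S6KL, whose signal cannot be assigned to 1 gene from these values.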

How the data were processed

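Nascent RNA was measured in 10 libraries of ML-DmBG3-c2 cells. Per the labels' protocols, RNA from chromatin was depleted of uncapped and polyadenylated RNA and made into Ion Torrent libraries. SAMtools and bedtools are listed in the submitters' processing notes. For the aligner, build, annotation, strand handling and statistical test nothing is stated in the sources at hand. The authors deposited 1 table of mean signal per gene and group, which sums to 192180746 units for Sce RNAi, 192278102 for Ph RNAi and 191793598 for mock, so a global change cannot be seen. For nascent and total RNA the authors deposited each gene's ratio to mock with its p-value and q-value, to 3 decimals. The 4 total RNA mean columns match no sample and were not used.

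Nascent ratios were recomputed from the authors' means and differed from the deposited ratios by less than 0.001 in the members. Log2 was taken of the authors' ratios without a pseudocount. No test across libraries could be run, so the test used is the authors' q, under 0.05, over the whole table. Genes named were the 15 highest nascent Sce ratios, the 10 highest mock means, members called in any comparison, the 2 genes on each side of each limit, and members of the gene lists. Other members, and the other genes of pathways, serve as examples chosen after their values were seen. The members and lists were chosen with earlier results of these data known. No base sequence is printed. The Sce limit, the quantile normalization and the counting of calls were tested on simulated data. The simulation held no gene that the mock or Ph limit alone would remove, so those limits were not tested. Python 3.11.15, pandas 2.3.3 and numpy 2.4.6 were used.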

Additional observations from a re-analysis of the deposited data

How the results depend on the processing

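No paired analysis was possible because the table holds group means and no values per library, and for the same reason no replicate could be left out. With an unadjusted p under 0.05 the members called higher in total RNA were 16 after Sce RNAi and 4 after Ph RNAi, and those called lower were 7 after Ph RNAi and 1 after Pc RNAi. At that p 9.27% of all genes were higher after Sce RNAi and 13.9% after Ph RNAi. The shares of all genes that were lower were 4.70% after Ph RNAi and 2.62% after Pc RNAi. With q under 0.1 there were 2 higher and 2 lower after Ph RNAi. The shares of all genes at that q are not given here, so nothing is read from these counts. At q under 0.05, 3.52% of all genes were already higher and 0.367% lower after Ph RNAi. A nascent Sce ratio of 1.5 or more left 44 genes, with 0 called higher after Ph RNAi, 4 called higher after Pc RNAi and a median log2 ratio of -0.45 after Ph RNAi. With a nascent Ph ratio of 1 or less, 0 were called higher after Ph RNAi. With a mock mean of 5000 or more, 33 genes remained, of which 1 was called higher after Sce RNAi and 4 after Pc RNAi, with median log2 ratios of 0.52 after Sce RNAi and -0.37 after Ph RNAi. Quantile normalization of the group means chose 88 genes, 61 of them among the 77, with 2 called higher after Ph RNAi and a median of 0.17 after Sce RNAi. The 28 genes free of any overlap had 0 called higher after Ph RNAi, 3 after Pc RNAi and a median of 0.14 after Sce RNAi. Those medians compare with 0.28 after Sce RNAi and -0.26 after Ph RNAi over the 77 and kept their sign. The median after Pc RNAi, 0.02 over the 77, changed sign to -0.04 both with a Sce ratio of 1.5 or more and with quantile normalization. Fewer genes were in each stricter set by construction, and beyond that the cause was not tested. Leaving out members covered over 50% or more by other models, an alternative chosen after seeing the data, kept each count within 1.5 times. Depth is unknown.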

Other observations

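The 77 members can be set out by their nascent Ph ratio, which the rule used only as an upper limit. The 22 members 1.4-fold or more below mock in nascent RNA after Ph RNAi had a median total RNA ratio of 1.20 after Sce RNAi, 0.670 after Ph RNAi and 0.746 after Pc RNAi. The 22 members with a nascent Ph ratio of 0.95 or more had medians of 1.27, 0.908 and 0.951 in the same order. The first group held LpR1, rols and brk, and the second held rempA, wda and rngo. Both groups also held genes without an assigned role, such as CG10479 and CG5191 in the first and CG6701 and CG11970 in the second.

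Among the 32 members without an assigned role, 25 had a total RNA ratio above 1 after Sce RNAi, 12 after Ph RNAi and 14 after Pc RNAi. The other 20 lay below 1 after Ph RNAi. Of all genes 54.8% were above 1 after Sce RNAi and 53.6% after Pc RNAi, and 44.3% were below 1 after Ph RNAi. Of the 675 genes that met the Sce limit but not the Ph limit, 506 were above 1 after Sce RNAi. That share is close to 25 of 32, so nothing particular to these members is read from it. Psc and Su(z)2, related genes of PRC1 subunits, were not members, since their nascent ratios after Ph RNAi were 2.18 and 2.22. In total RNA after Sce RNAi Psc rose 2.78-fold (q 0.045) and Su(z)2 rose 5.81-fold (q 0.005) in the authors' deposited table.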
